A study of Mus musculus with 20 samples.

Results

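M3, one of 3 stable mesenchymal clones of the mouse mammary tumour line Py2T, was compared with Py2T LT, the same line held in TGF-beta, at the level of RNA. The comparison used 2 M3 libraries and 2 Py2T LT libraries, 4 of the 20 libraries of the series, chosen by their labels. Genes were tested where at least 1 RPKM (reads scaled to transcript length and sequencing depth) was listed in 2 or more of the 8 libraries of M3, M1, M2 and Py2T LT, which left 11717 of 19311 listed genes. The M3 cells carried no shRNA in these libraries, and their titles mark them as 0hr. M3 is a single clone, and the growth protocol names TGF-beta for the Py2T cells without saying if clones got it too. Py2T LT cells had been kept, for over 10 days, with TGF-beta 1 at 2 ng/ml. All groups share the MMTV-PyMT background, in which the polyoma middle T oncogene is driven in the mammary epithelium. M1 and M2, with 2 libraries each, served to show where M3 stands apart from the other clones. They also entered the choice of tested genes and the shared spread of the fit. The series title asks about histone deacetylases, Mbd3/NuRD and Tet2 in plasticity between the epithelial and mesenchymal states.

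In an epithelial-mesenchymal transition, epithelial cells give up the junctions that hold a sheet together and take on the filaments, matrix and motility of mesenchymal cells. TGF-beta ligands start this change by binding receptor kinases that phosphorylate SMAD proteins, and factors of the Snai, Zeb and Twist families repress epithelial genes. Bone morphogenetic proteins (BMPs) belong to the same ligand family, act through other SMADs and switch on the Id genes.

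The 8 libraries had RPKM sums between 340168 and 382930, and their depth relative to Py2T LT replicate 1 lay between 0.865 and 1.058, while the absolute depth is unknown. Replicates correlated across genes at 0.9894 in M3 and 0.9911 in Py2T LT on the log2 scale. The M1 pair stood apart from the other pairs, with a correlation of 0.9795 and 267 genes more than 2-fold apart, against 119 such genes in the M3 pair and 124 in the Py2T LT pair. Per the labels the RNA came from 2 independent experiments. The p-values rest on the spread between 2 such samples a group, pooled over all 4 groups, M1 and M2 included. The luminal keratins Krt8 and Krt18 were abundant in both groups (364 and 374, and 925 and 891 RPKM in M3; 367 and 357, and 799 and 779.5 RPKM in Py2T LT). Other luminal markers were mixed. All 13 listed, these 2 keratins included, summed to 1505 to 1523 RPKM in M3 and 1339 to 1364 RPKM in Py2T LT, more than Krt8 and Krt18 held. Of 13 listed, 7 stayed under 1 RPKM in all M3 and Py2T LT libraries, among them Krt19, Foxa1, Elf5 and Pgr. The basal keratin Krt5 and the fibroblast marker Thy1 were listed at 0 in all 8 libraries. The leukocyte marker Ptprc did not exceed 0.0291 RPKM and the endothelial marker Pecam1 did not exceed 0.141 RPKM in any of them. In bulk RNA, fewer cells of a type and less RNA per cell cannot be told apart.

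Most of the measured transcriptome differed between M3 and Py2T LT. At an adjusted p under 0.05, 6975 genes or 59.5% of those tested passed, of which 3435 (29.3%) were higher and 3540 (30.2%) were lower in M3. Both M3 libraries lay above or below both Py2T LT libraries for 82.9% of the tested genes. The median log2 difference over all tested genes was -0.01, with positive and negative differences in near balance. At least 2-fold differences numbered 1272 genes higher and 1064 lower, and at least 16-fold differences 57 higher and 105 lower. Here and below, log2 differences are M3 minus Py2T LT on the scale of log2(RPKM + 0.5) after scaling, with the standard error of the fit. They understate the change of genes near 0. The counts of each gene list below stand against these shares of 29.3% higher and 30.2% lower, and a list with members in both directions is not set apart by that.

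Many of the largest differences were genes that one group expressed and the other barely did. With at least 5 RPKM on average in one group and under 0.1 RPKM in both libraries of the other, 25 genes passed as higher in M3 and 74 as lower. The tight junction gene Cldn6 had 223 and 248 RPKM in M3, against 0.386 and 0.223 RPKM in Py2T LT, the largest rise (log2 difference 8.20 ± 0.12, adjusted p = 3.63e-09). The intermediate filament gene Nes, known from neural progenitors, had 0.0628 and 0.0454 RPKM in M3, against 218 and 185 RPKM in Py2T LT, the largest fall (-8.53 ± 0.14, adjusted p = 3.63e-09). Neither gene had overlapping groups. Other large rises were Sytl2, a Rab27 effector in vesicle transport (6.39 ± 0.12), Mgp, which inhibits calcification (6.34 ± 0.30), the antiviral gene Fam111a (6.04 ± 0.12), the cytoskeletal adaptor gene Epb41l4a (5.93 ± 0.13) and the cytidine deaminase Cda (5.81 ± 0.21). Tmem176a and Tmem176b rose by 5.83 ± 0.12 and 5.81 ± 0.15, but these 2 genes overlap on chromosome 6 and their reads may not be separable.

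The largest falls after Nes were spread over genes of different functions. The copper-dependent monooxygenase-like gene Moxd1 (log2 difference -8.12 ± 0.14), the thrombin receptor gene Thbd (-6.94 ± 0.13) and the plasminogen activator inhibitor gene Serpinb2 (-7.26 ± 0.14) were lower as well. Tfpi2, an inhibitor of serine proteases, was listed at 0 in both M3 libraries, against 139 and 129 RPKM in Py2T LT. The ubiquitin hydrolase Uchl1 was likewise listed at 0 in M3, against 87.1 and 101 RPKM in Py2T LT. Mab21l4 was also lower (-7.26 ± 0.14). The ribosomal protein gene Rpl26 was listed at 0.506 and 0.512 RPKM in M3, against 178 and 154 RPKM in Py2T LT, and is uncertain because near-identical copies of it could share its reads. A gene that every cell uses, Gapdh, was listed at 0.360 to 1.13 RPKM in all 8 libraries, so low listings of genes with such copies are not read as silence.

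**Figure D1:**
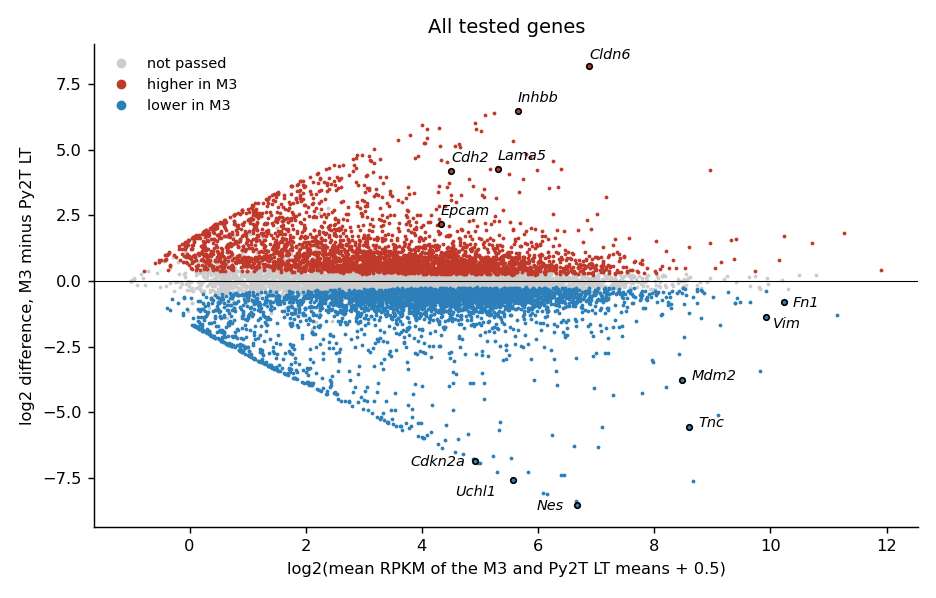
Each point is 1 of 11717 tested genes, with log2 of its mean RPKM plus 0.5 on the horizontal axis and the log2 difference M3 minus Py2T LT on the vertical axis. Red genes were higher in M3 and blue genes lower (adjusted p under 0.05), and the named circles run from Cldn6 at 8.20 to Nes at -8.53.

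Ligand genes of the TGF-beta family differed in both directions. Of 11 tested ligands, 4 were higher, 6 lower and 1 did not pass, with a median log2 difference of -0.72. The activin subunit gene Inhbb had 105 and 92.7 RPKM in M3, against 0.889 and 0.381 RPKM in Py2T LT (6.48 ± 0.19, adjusted p = 3.69e-08). The other activin subunit gene, Inhba, had 17.4 and 10.7 RPKM in M3, against 228 and 241 RPKM in Py2T LT (-4.07 ± 0.38, adjusted p = 2.60e-04). The 2 subunit genes thus moved in opposite directions, each without overlap of the groups. Bmp4 had 7.36 and 7.89 RPKM in M3, against 0.117 and 0.0560 RPKM in Py2T LT (3.79 ± 0.18), and Bmp7 rose by 0.88 ± 0.12. Lefty1, an inhibitor of Nodal, had 7.57 and 8.91 RPKM in M3 and was listed at 0 in both Py2T LT libraries. The reverse held for Bmp6, listed at 0 in M3 with 5.12 and 3.57 RPKM in Py2T LT. Tgfb1 itself had 10.8 and 12.6 RPKM in M3, against 32.0 and 23 RPKM in Py2T LT (-1.20 ± 0.15, adjusted p = 1.78e-04), and Tgfb3 differed by -0.17 ± 0.12 (adjusted p = 0.266).

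The receptor genes Tgfbr1, Tgfbr2 and Tgfbr3 were higher in M3. The co-receptor gene Eng was lower (-0.64 ± 0.14, adjusted p = 0.00462) but stayed under 1 RPKM in both groups. It had 0.323 and 0.280 RPKM in M3, against 0.684 and 0.798 RPKM in Py2T LT, and was tested only because of its levels in M1 and M2. Tgfbr1, the signalling type I receptor, had 42.9 and 39.4 RPKM in M3, against 14.4 and 15.4 RPKM in Py2T LT (1.42 ± 0.14). Tgfbr2, which binds the ligand and activates Tgfbr1, had 56.6 and 54.7 RPKM in M3, against 18.7 and 17.3 RPKM in Py2T LT (1.58 ± 0.10). The co-receptor gene Tgfbr3 had 8.91 and 9.29 RPKM in M3, against 0.221 and 0.286 RPKM in Py2T LT (3.67 ± 0.17). The extracellular antagonists also differed. Grem1, which binds BMPs, had 27.4 and 26.0 RPKM in M3, against 0.0710 and 0.0682 RPKM in Py2T LT (5.58 ± 0.24), and Fst, which binds activins, rose by 3.28 ± 0.15. Its relative Fstl3 had 0.225 and 0.285 RPKM in M3, against 50.5 and 45.2 RPKM in Py2T LT (-6.02 ± 0.15). The BMP receptor gene Acvr1 was lower (-0.76 ± 0.10), and Bmpr2 differed by -0.03 ± 0.21 (adjusted p = 0.927). In all, 12 of 20 tested receptors and modulators were higher, 5 lower and 3 did not pass, with a median of 0.51.

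The SMAD genes that carry the TGF-beta signal did not pass, while regulators of the pathway differed in both directions. Smad2, Smad3 and Smad4 had log2 differences of 0.15 ± 0.13, 0.13 ± 0.15 and 0.16 ± 0.09, none of which passed. The inhibitory SMAD gene Smad7 had 18.9 and 20.1 RPKM in M3, against 38.3 and 35.5 RPKM in Py2T LT (-0.92 ± 0.10, adjusted p = 7.47e-05). The SMAD repressor Skil (-1.56 ± 0.15) and Pmepa1, which limits receptor signalling (-1.78 ± 0.13), were lower. Smad6, an inhibitor in the BMP branch, rose by 0.86 ± 0.17. Of 16 tested SMADs and regulators 4 were higher, 6 lower and 6 did not pass, with a median of -0.13.

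Known targets of TGF-beta and of BMPs differed in direction. The matricellular genes Ccn2 (-4.35 ± 0.61) and Ccn1 (-2.86 ± 0.57) were lower, and Ccn2 varied within M3 at 21.1 and 9.45 RPKM, against 312 and 278 RPKM in Py2T LT. Id1, which blocks helix-loop-helix factors and is induced by BMPs, had 41.0 and 51.6 RPKM in M3, against 9.28 and 8.43 RPKM in Py2T LT (2.30 ± 0.18, adjusted p = 8.24e-06). Id2, Id3 and Id4 rose by 2.21 ± 0.17, 1.5 ± 0.19 and 0.87 ± 0.17, and the homeobox gene Msx1 by 3.71 ± 0.17. No M3 library of these 7 genes fell within the range of the Py2T LT libraries. The list of 14 tested targets had 5 higher, 8 lower and 1 not passed (Msx2, -0.06 ± 0.10), with a median of -0.78.

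**Figure D2:**
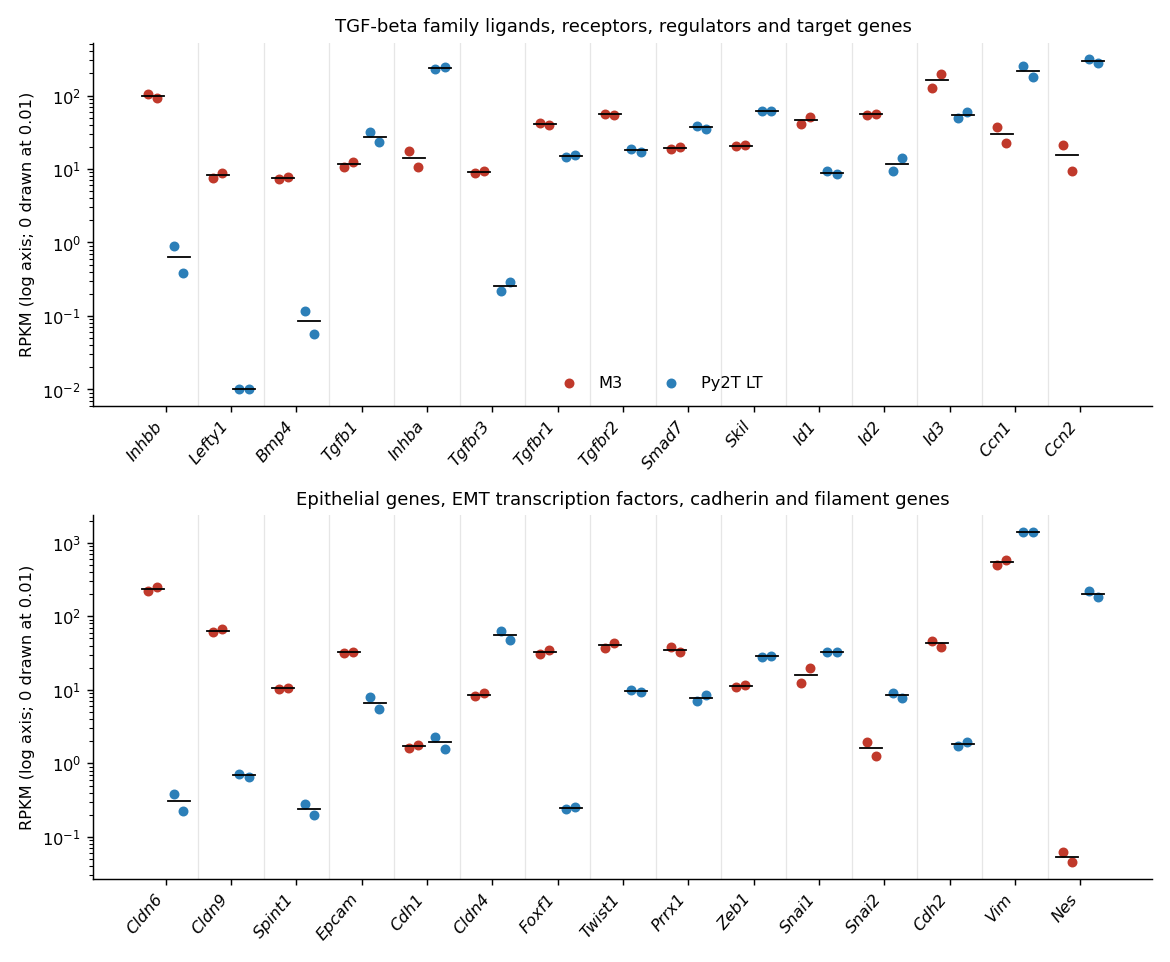
Each point is the RPKM of 1 library on a log axis, M3 in red to the left of Py2T LT in blue, with a bar at the mean of the 2 libraries; a gene listed at 0 is drawn at 0.01. Inhbb and Inhba, Id1 and Ccn2, and Cldn6 and Cldn4 lie on opposite sides, while the Cdh1 libraries of the 2 groups overlap.

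Many epithelial genes were higher in M3, while Cdh1 did not pass. Of 31 tested adhesion and junction genes, 17 (54.8%) were higher, 9 (29.0%) lower and 5 did not pass, with a median log2 difference of 0.50, against 29.3% higher and 30.2% lower of all tested genes. Cldn9, whose gene lies beside Cldn6 on chromosome 17, had 60.3 and 66.4 RPKM in M3, against 0.726 and 0.658 RPKM in Py2T LT (5.73 ± 0.11). The protease inhibitors Spint1 and Spint2, which protect epithelial surfaces, rose by 3.90 ± 0.18 and 3.27 ± 0.26, and Lsr, a protein of tricellular junctions, by 3.44 ± 0.14. The adhesion molecule gene Epcam had 32.0 and 32.7 RPKM in M3, against 7.99 and 5.42 RPKM in Py2T LT (2.19 ± 0.20, adjusted p = 2.45e-05). The desmosome genes Dsp and Pkp3 rose by 1.77 ± 0.14 and 1.64 ± 0.11. E-cadherin, Cdh1, had 1.62 and 1.80 RPKM in M3, against 2.32 and 1.56 RPKM in Py2T LT, with overlapping groups (-0.14 ± 0.20, adjusted p = 0.565).

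Other junction genes were lower. Cldn4 had 8.13 and 8.94 RPKM in M3, against 63.8 and 47.8 RPKM in Py2T LT (-2.65 ± 0.16, adjusted p = 2.04e-06). The desmosomal gene Pkp2 (-1.26 ± 0.14), the plakoglobin gene Jup (-0.86 ± 0.14) and the scaffold gene Tjp1 (-0.79 ± 0.21) were lower. Among 8 tested epithelial transcription and splicing regulators, 6 were higher, 1 lower and 1 did not pass, with a median of 0.73. The luminal factor Gata3 rose by 1.40 ± 0.11 and Elf3 by 1.76 ± 0.14. Grhl2, which maintains epithelial junction genes, reached only 3.12 and 2.70 RPKM in M3, against 1.94 and 1.64 RPKM in Py2T LT (0.56 ± 0.16, adjusted p = 0.0139). Esrp1, which directs epithelial splicing, fell by 0.71 ± 0.16.

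The promoters of 3 epithelial genes that rose are shown with the E-box CAGGTG, a sequence that Zeb and Snai factors are known to bind. Binding was not measured here, and a part of these factors in the rises was not tested. They are the RefSeq promoters of GRCm38.p6, from 250 bases before to 50 after the gene's start, 5′ to 3′ on the gene's strand, with CAGGTG or its reverse complement CACCTG in capitals. Cldn6 and Spint1 had the largest rises among list genes with a promoter in the table, and Epcam was 1 of 3 genes of the adhesion and junction list that were higher in M3 than in M1, M2 and Py2T LT alike.
Cldn6 promoter (chr17:23679115-23679414, plus strand): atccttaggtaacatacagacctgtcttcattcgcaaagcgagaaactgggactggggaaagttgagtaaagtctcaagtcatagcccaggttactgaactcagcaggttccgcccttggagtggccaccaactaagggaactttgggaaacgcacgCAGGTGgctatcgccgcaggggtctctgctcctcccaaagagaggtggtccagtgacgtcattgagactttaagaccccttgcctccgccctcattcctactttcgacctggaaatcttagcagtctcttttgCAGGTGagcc
Spint1 promoter (chr2:119237110-119237409, plus strand): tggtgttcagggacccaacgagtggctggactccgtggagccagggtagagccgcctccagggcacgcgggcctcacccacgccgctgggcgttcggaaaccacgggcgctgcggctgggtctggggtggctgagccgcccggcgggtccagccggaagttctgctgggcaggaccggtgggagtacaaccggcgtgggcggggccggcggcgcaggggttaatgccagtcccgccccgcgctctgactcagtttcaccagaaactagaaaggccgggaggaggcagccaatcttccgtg
Epcam promoter (chr17:87635729-87636028, plus strand): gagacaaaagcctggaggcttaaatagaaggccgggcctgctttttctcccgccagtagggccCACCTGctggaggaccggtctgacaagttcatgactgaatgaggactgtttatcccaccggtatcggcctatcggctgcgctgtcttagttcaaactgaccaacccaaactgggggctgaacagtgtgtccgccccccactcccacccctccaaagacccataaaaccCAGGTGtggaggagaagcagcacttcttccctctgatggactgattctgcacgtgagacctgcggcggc
The Cldn6 window held the motif at 2 places and the Epcam window at 2 places, and the Spint1 window held these letters nowhere. Over all 32851 promoters of the table, 20.2% held the motif on either strand, as did 16.4% of the first listed promoters of tested genes. For the epithelial lists the table holds promoters for only 23 of their 39 tested genes. Of these, 10 of 14 higher genes, 2 of 8 lower genes and 0 of 1 not passed held the motif. These counts do not cover the whole lists.

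Transcription factors of the transition held 8 higher (38.1%) and 6 lower (28.6%) of 21 tested genes, near the 29.3% and 30.2% of all tested genes, and 7 did not pass (median 0.20). Twist1 had 37.0 and 43.3 RPKM in M3, against 10.1 and 9.39 RPKM in Py2T LT (1.97 ± 0.12), whereas Twist2 had 1.93 and 2.50 RPKM in M3, against 19.9 and 17.8 RPKM in Py2T LT (-2.86 ± 0.15). The forkhead gene Foxf1 had 30.5 and 34.8 RPKM in M3, against 0.240 and 0.253 RPKM in Py2T LT (5.47 ± 0.11), whereas Foxc2 had 0.0202 and 0 RPKM in M3, against 22.7 and 20.5 RPKM in Py2T LT (-5.46 ± 0.13). The long noncoding RNA gene Fendrr, beside Foxf1 on chromosome 8, had 8.02 and 8.28 RPKM in M3, against 0 and 0.0168 RPKM in Py2T LT. Unlike Twist1, the Zeb and Snai genes, which encode repressors of Cdh1, were lower in M3. Zeb1 had 10.8 and 11.6 RPKM in M3, against 27.8 and 29.2 RPKM in Py2T LT (-1.33 ± 0.18), and Zeb2 fell by 0.68 ± 0.16. Snai1 (-1.07 ± 0.20) and Snai2 (-2.11 ± 0.20) were lower. Prrx1, a homeobox gene of mesenchyme, rose by 2.08 ± 0.17.

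Most mesenchymal cadherin and contractile genes were lower in M3. Vimentin, Vim, had 496 and 589 RPKM in M3, against 1397 and 1379 RPKM in Py2T LT (-1.38 ± 0.11, adjusted p = 1.22e-05). N-cadherin, Cdh2, had 46.6 and 38.8 RPKM in M3, against 1.74 and 1.94 RPKM in Py2T LT (4.19 ± 0.14, adjusted p = 4.24e-08). Another mesenchymal cadherin, Cdh6, was listed at 0 in both M3 libraries, against 41.6 and 37.9 RPKM in Py2T LT. The tropomyosin genes also differed in both directions. Tpm2 had 47.6 and 48.6 RPKM in M3, against 0.717 and 0.890 RPKM in Py2T LT (5.21 ± 0.15), and Tpm1 had 285 and 256 RPKM in M3, against 829 and 862 RPKM in Py2T LT (-1.66 ± 0.11). The calcium-binding gene S100a4, a fibroblast-associated marker, rose by 1.85 ± 0.18 to 3937 and 3779 RPKM in M3, against 902 and 1237 RPKM in Py2T LT. Myl9, the regulatory light chain of myosin, fell by 3.37 ± 0.29. The list of 21 tested genes had 5 higher, 13 lower and 3 not passed, with a median of -0.59. Among 9 tested intermediate filament genes, 3 were higher, 3 lower and 3 did not pass (median 0.01), with the keratin gene Krt7 up by 0.83 ± 0.12.

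Collagen genes were more often lower than higher in M3. The paired collagen IV genes Col4a1 and Col4a2, which form the main basement membrane network, were nearly absent from M3. Col4a1 had 0.0249 and 0.00841 RPKM in M3, against 65.0 and 58.5 RPKM in Py2T LT (-6.93 ± 0.13), and Col4a2 fell by 6.21 ± 0.12. Col4a5, a chain of another collagen IV network, had 22.7 and 21.4 RPKM in M3, against 1.95 and 2.55 RPKM in Py2T LT (3.03 ± 0.15), and Col4a6 rose by 2.53 ± 0.15. The fibrillar collagen genes Col5a1 (-4.59 ± 0.14) and Col5a3 (-6.06 ± 0.14) were lower. Among the lysyl oxidases, which cross-link collagen, Loxl2 fell by 3.98 ± 0.13 while Loxl3 and Loxl4 rose by 2.73 ± 0.11 and 1.89 ± 0.11. Of 27 tested genes, 9 were higher, 16 lower and 2 did not pass, with a median of -0.89.

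Of 23 tested glycoproteins and proteoglycans, 8 were higher, 11 lower and 4 did not pass (median -0.26). Tenascin C, Tnc, a matrix protein of wounds and tumour stroma, had 19.5 and 12.8 RPKM in M3, against 758 and 757 RPKM in Py2T LT (-5.56 ± 0.22). Fibronectin, Fn1, had 923 and 855 RPKM in M3, against 1561 and 1469 RPKM in Py2T LT (-0.79 ± 0.17, adjusted p = 0.00421). The laminin chain gene Lama5 had 74.9 and 74.1 RPKM in M3, against 4.05 and 2.68 RPKM in Py2T LT (4.28 ± 0.22). The fibre-associated genes Efemp2 (-5.83 ± 0.17) and Fbln2 (-3.09 ± 0.11) were lower, and the secreted phosphoprotein gene Spp1 rose by 1.46 ± 0.14.

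Matrix receptors and proteases also differed in both directions. Itgb4, the integrin chain of hemidesmosomes, had 48.4 and 56.2 RPKM in M3, against 3.58 and 2.54 RPKM in Py2T LT (3.88 ± 0.14), and its partner Itga6 rose by 1.46 ± 0.15. Itga5, the fibronectin receptor chain, had 38.0 and 35.9 RPKM in M3, against 250.4 and 243 RPKM in Py2T LT (-2.74 ± 0.11), and Itgb3 fell by 5.41 ± 0.15. Of 13 tested integrins 6 were higher, 4 lower and 3 did not pass (median 0.29). Mmp9, a gelatinase, had 0.381 and 0.473 RPKM in M3, against 49.3 and 33.5 RPKM in Py2T LT (-5.50 ± 0.18). The plasminogen activators Plat (-4.29 ± 0.14) and Plau (-2.93 ± 0.15) were lower, as were the metalloprotease inhibitors Timp1 (-2.79 ± 0.15) and Timp3 (-2.75 ± 0.15). Timp2 rose by 1.54 ± 0.11 and the cathepsin gene Ctsl by 1.6 ± 0.10. Among 26 tested proteases and inhibitors, 8 were higher, 12 lower and 6 did not pass (median -0.15).

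Growth factor genes were more often lower than higher. Of 35 tested receptor tyrosine kinases and ligands, 17 were lower, 8 higher and 10 did not pass (median -0.32). Egfr, the receptor for epidermal growth factor, had 0.188 and 0.181 RPKM in M3, against 16.0 and 15.0 RPKM in Py2T LT (-4.56 ± 0.15). Its ligands Hbegf (-2.10 ± 0.16) and Areg (-1.6 ± 0.18) were lower, and Fgf2 fell by 5.24 ± 0.15. Kitl, the ligand of Kit, had 40.9 and 32.3 RPKM in M3, against 4.15 and 4.75 RPKM in Py2T LT (2.88 ± 0.15). Gas6, which binds Axl-family receptors, rose by 3.80 ± 0.17, and Axl fell by 0.36 ± 0.09. In the Wnt list of 27 tested genes, 10 were higher, 12 lower and 5 did not pass (median -0.24). The ligand gene Wnt5a had 2.58 and 1.72 RPKM in M3, against 40.4 and 41.1 RPKM in Py2T LT (-4.0 ± 0.17), and Wnt10a had 16.2 and 22.7 RPKM in M3, against 1.69 and 1.25 RPKM in Py2T LT (3.31 ± 0.17). The nuclear effector Lef1 was listed at 0 in M3, against 20.2 and 20.5 RPKM in Py2T LT. Of 14 tested neuronal genes, 7 were higher, 5 lower and 2 did not pass (median 0.59). The guidance gene Sema3a had 74.4 and 62.2 RPKM in M3, against 2.62 and 3.36 RPKM in Py2T LT (4.29 ± 0.14).

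Cytokine genes differed in both directions. Csf2, which encodes GM-CSF, had 0.319 and 0.161 RPKM in M3, against 77.4 and 69.0 RPKM in Py2T LT (-6.67 ± 0.18), and Il11, a cytokine that TGF-beta induces, fell by 6.33 ± 0.26. Csf1, which encodes M-CSF, had 109.6 and 104 RPKM in M3, against 36.7 and 27.0 RPKM in Py2T LT (1.73 ± 0.13). The chemokine genes Cx3cl1 and Ccl2 rose by 3.90 ± 0.09 and 4.68 ± 0.51, with Ccl2 at 19 and 36.8 RPKM in M3, against 0.361 and 0.763 RPKM in Py2T LT. Of 20 tested chemokines and cytokines 10 were higher, 7 lower and 3 did not pass (median 0.30).

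Most antigen presentation genes were higher in M3. The list of MHC class I presentation held 20 tested genes, with 13 higher, 2 lower and 5 not passed (median log2 difference 0.98). The peptide transporter genes Tap1 and Tap2 rose by 2.09 ± 0.16 and 2.74 ± 0.16, and Tapbp, which tethers class I molecules to the transporter, had 71.2 and 79.5 RPKM in M3, against 18.9 and 18.4 RPKM in Py2T LT (1.97 ± 0.11). The non-classical genes H2-T23 and H2-T22 rose by 2.49 ± 0.14 and 2.41 ± 0.14. Of the classical genes, H2-K1 stood at 33.5 and 35.8 RPKM in M3, against 32.4 and 33.4 RPKM in Py2T LT (0.05 ± 0.12, adjusted p = 0.710), and H2-D1 was lower (-0.51 ± 0.13). H2 genes are near-identical to each other, so their single values are uncertain. Many of these genes lie on chromosome 17, whose median was 0.44, and the list's median was 0.82 after the median of each gene's chromosome was taken off. Of 19 tested interferon-stimulated genes 11 were higher, 2 lower and 6 did not pass (median 0.59). The virus restriction gene Bst2 had 24.5 and 31.2 RPKM in M3, against 5.24 and 5.40 RPKM in Py2T LT (2.26 ± 0.15).

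Genes of the stress response were lower in M3 almost throughout the list. This list, of the unfolded protein and integrated stress responses, held 31 tested genes, with 27 lower, 1 higher and 3 not passed (median -1.02). Atf4, the central factor of the response, had 211 and 199 RPKM in M3, against 462 and 369 RPKM in Py2T LT (-1.03 ± 0.14, adjusted p = 3.31e-04). The folate enzyme gene Mthfd2 had 24.4 and 16.6 RPKM in M3, against 158 and 97.6 RPKM in Py2T LT (-2.61 ± 0.24), and the asparagine synthetase gene Asns fell by 1.71 ± 0.16. Py2T LT replicate 1 was above replicate 2 for Atf4, Mthfd2 and Asns, and all M3 values lay below both. The chaperone gene Hspa5 fell by 0.61 ± 0.12, while Xbp1 differed by -0.00 ± 0.10 (adjusted p = 0.980). The 1 gene that was higher was the lipoprotein receptor gene Vldlr (1.36 ± 0.21).

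Genes of cholesterol synthesis and uptake were mostly lower in M3. Of 29 tested, 20 (69.0%) were lower, 3 (10.3%) higher and 6 did not pass (median -0.60), against 30.2% lower and 29.3% higher of all tested genes. Dhcr7, the last enzyme of the pathway, had 19.8 and 24.2 RPKM in M3, against 61.5 and 57.6 RPKM in Py2T LT (-1.44 ± 0.12), and Cyp51 fell by 1.46 ± 0.12. The desaturase gene Scd1 rose by 0.75 ± 0.14. Of 29 tested genes of glycolysis and the hypoxia response 12 (41.4%) were higher, 7 (24.1%) lower and 10 did not pass (median 0.19), nearer to those background shares. The hypoxia targets Car9 and Pdk1 rose by 2.92 ± 0.18 and 2.80 ± 0.12, and the hexokinase gene Hk2 fell by 1.17 ± 0.18.

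Cell cycle inhibitor genes of the Ink4 locus were at or near 0 in M3. Cdkn2a, which encodes p16 and Arf, had 0.0484 and 0 RPKM in M3, against 65.5 and 53.5 RPKM in Py2T LT (-6.86 ± 0.15), and its neighbour Cdkn2b had 0 and 0.0399 RPKM in M3, against 45.1 and 47.9 RPKM in Py2T LT (-6.52 ± 0.13). Another inhibitor of this family, Cdkn2c, had 26.6 and 34.0 RPKM in M3, against 14.4 and 13.0 RPKM in Py2T LT (1.09 ± 0.14). Cdkn1a, which encodes p21, had 70.6 and 66.9 RPKM in M3, against 82.2 and 65.8 RPKM in Py2T LT, with overlapping groups (-0.12 ± 0.12, adjusted p = 0.443). Of 20 tested inhibitors and G1 regulators 5 were higher, 8 lower and 7 did not pass (median -0.20). Of 35 tested proliferation genes 9 were higher, 8 lower and 18 did not pass (median 0.12), so that 48.6% passed, against 59.5% of all tested genes. The counts of proliferation genes were 14 higher and 5 lower with equal sums, 14 higher without M1 replicate 1, 5 higher without Py2T LT replicate 1 and 5 lower without Py2T LT replicate 2. Without either M1 library, 8 inhibitors and G1 regulators were higher. The replication licensing gene Mcm6 rose by 0.93 ± 0.12, and the proliferation marker Mki67 differed by -0.18 ± 0.18 (adjusted p = 0.416).

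Of 25 tested p53 pathway genes 9 (36.0%) were higher, 8 (32.0%) lower and 8 did not pass (median 0.14), shares near the 29.3% and 30.2% of all tested genes. Perp, a desmosomal p53 target, had 138 and 135 RPKM in M3, against 35.6 and 36.4 RPKM in Py2T LT (1.89 ± 0.11), and Btg2 fell by 2.06 ± 0.22. Mdm2, the ligase that degrades p53, had 48.8 and 48.9 RPKM in M3, against 669.6 and 664 RPKM in Py2T LT (-3.78 ± 0.11, adjusted p = 2.56e-08). Genes beside it on chromosome 10 were lower as well. The 11 consecutive tested genes from Yeats4 to Cand1 (GRCm38, 117215141 to 119240055) were all lower in M3, with a median log2 difference of -3.44. Among 22 tested immediate early and AP-1 genes, 3 were higher, 10 lower and 9 did not pass (median -0.48), with Egr3 falling by 2.30 ± 0.18 and Dusp1 rising by 2.32 ± 0.25. Of 9 tested oncofetal regulators 3 were higher, 4 lower and 2 did not pass (median -0.38). The imprinted gene Mest rose by 2.98 ± 0.12, and Hmga2, a chromatin protein of embryonic cells, fell by 0.93 ± 0.13.

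The series title names histone deacetylases, Mbd3/NuRD and Tet2. Among Hdac1, Hdac2, Hdac3, Hdac8, Mbd3 and Tet2, Hdac1 differed most between M3 and Py2T LT. Hdac1, a class I deacetylase of the NuRD complex, had 14.1 and 13.8 RPKM in M3, against 5.64 and 5.44 RPKM in Py2T LT (1.24 ± 0.12, adjusted p = 4.56e-05). Hdac2 had 101 and 93.9 RPKM in M3, against 114 and 136 RPKM in Py2T LT (-0.37 ± 0.12, adjusted p = 0.0248). The Hdac2 call was lost without M3 replicate 2 (-0.31), without Py2T LT replicate 2 (-0.24) and with libraries scaled to equal sums (-0.27). Mbd3, the subunit that gives Mbd3/NuRD its name, had 85.6 and 108 RPKM in M3, against 135 and 129 RPKM in Py2T LT (-0.47 ± 0.13, adjusted p = 0.0141), a call lost without M3 replicate 1 (-0.32) or Py2T LT replicate 1 (-0.44).

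Tet2, which oxidises 5-methylcytosine, had 2.56 and 2.36 RPKM in M3, against 1.42 and 1.52 RPKM in Py2T LT (0.57 ± 0.21, adjusted p = 0.0438). This call was lost without either library of M3, M2 or Py2T LT, at values from 0.52 to 0.63, and without the filter on low values. Hdac3 passed narrowly (0.28 ± 0.10, adjusted p = 0.0322) and was lost without any 1 library of M3, M2 or Py2T LT. Hdac8 differed by 0.14 ± 0.12 (adjusted p = 0.340). Of 14 tested NuRD subunits 2 were higher, 5 lower and 7 did not pass (median -0.21), and with equal sums 5 were higher and 3 lower. Of 18 tested DNA methylation enzymes and readers 4 were higher, 8 lower and 6 did not pass (median -0.06), and without the filter 2 were higher. Gadd45a, a stress gene linked to demethylation, fell by 3.55 ± 0.18, and the methyltransferase gene Dnmt3b rose by 0.79 ± 0.13. Of 17 tested deacetylases and partners outside NuRD 4 were higher, 6 lower and 7 did not pass (median -0.07). In these 3 lists the counts were small and several changed by more than 1.5 times when 1 library was left out, down to 2 higher genes for DNA methylation without M3 replicate 1 or either Py2T LT library, and to 1 for the deacetylases without either M3 library or Py2T LT replicate 1.

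**Figure D3:**
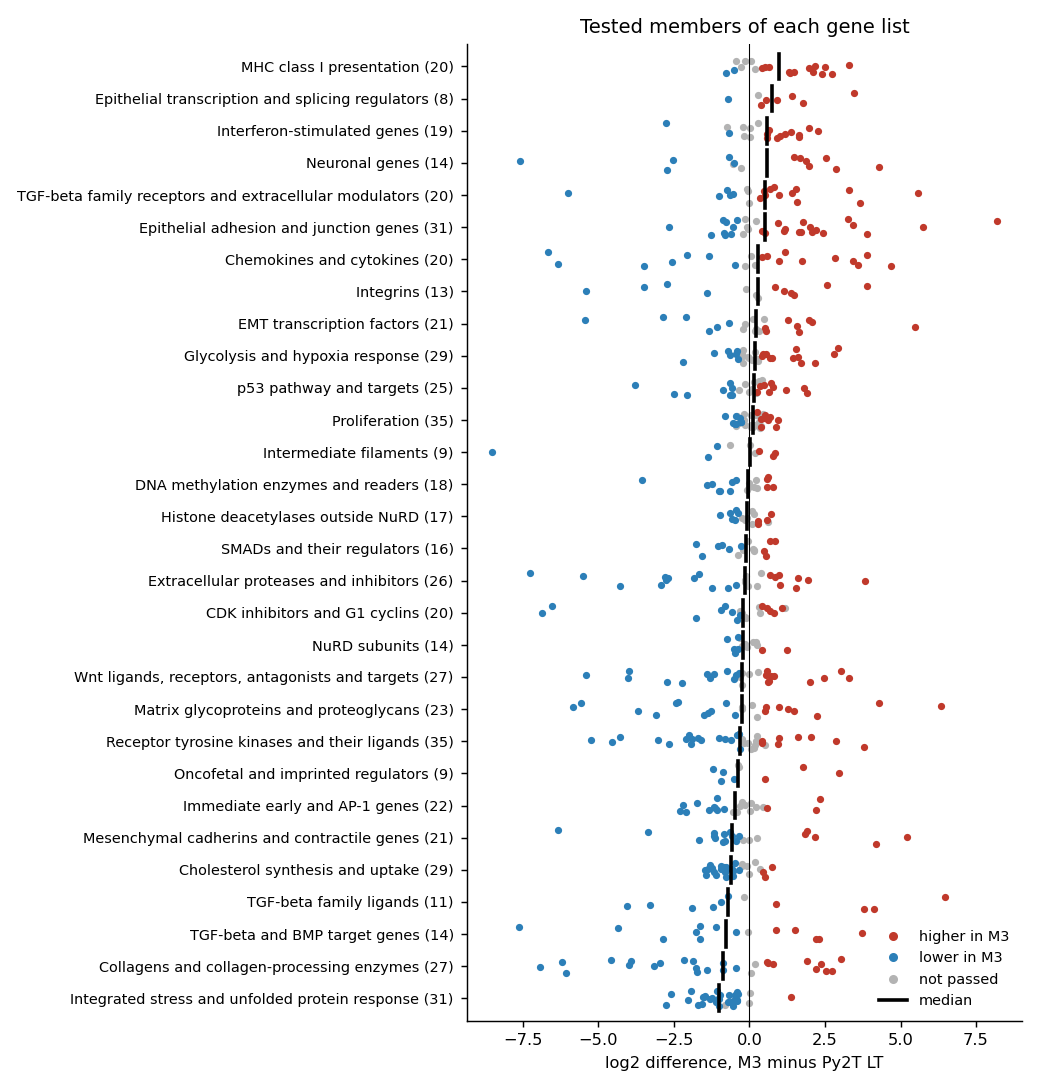
Each point is a tested member of 1 of the 30 gene lists at its log2 difference M3 minus Py2T LT, coloured by its call, with the number tested in parentheses and a black bar at the list's median. Lists run from MHC class I presentation at the top (median 0.98) to the stress response list at the bottom (median -1.02), and most lists hold members on both sides of 0.

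Summed marker levels of other cell types were low beside the keratins. The haematopoietic markers summed to 34.0 and 42.5 RPKM in M3, against 22.9 and 25 RPKM in Py2T LT, most of it from the lipopolysaccharide co-receptor gene Cd14. Endothelial markers summed to 0.350 and 0.433 RPKM in M3, against 3.13 and 3.31 RPKM in Py2T LT, and fibroblast and adipocyte markers to 4.59 and 4.75 RPKM in M3, against 11.2 and 11.5 RPKM in Py2T LT. Basal markers summed to 4.08 and 4.74 RPKM in M3, against 3.00 and 5.66 RPKM in Py2T LT. Of 6 tested luminal markers 3 were higher, 1 lower and 2 did not pass. The oestrogen receptor gene Esr1 had 3.07 and 3.28 RPKM in M3, against 0.299 and 0.242 RPKM in Py2T LT (2.25 ± 0.15), and the milk gene Csn3 was lower (-4.0 ± 0.34).

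The differences were not spread evenly over the genome. On chromosome 17 the median log2 difference M3 minus Py2T LT was 0.44, with 317 genes higher and 66 lower of 593 tested. Chromosome 1 followed at 0.41 (359 higher and 91 lower of 679) and chromosome 4 at 0.38 (378 and 87 of 740). Chromosome 14 lay at the other end at -0.60, with 46 genes higher and 246 lower of 384, followed by chromosome 6 at -0.38 and chromosome 5 at -0.31. Each of the 2 M3 libraries showed these medians by itself. The chromosome 14 medians were -0.60 and -0.62 in M3, against -0.00 and 0.00 in Py2T LT, all taken relative to the Py2T LT mean. The chromosome 17 medians were 0.39 and 0.48 in M3, against 0.01 and -0.01 in Py2T LT. These shifts were not particular to M3. On chromosome 14 the medians were -0.58 and -0.60 in M1 and -0.55 and -0.54 in M2. On chromosome 17 they were 0.51 and 0.46 in M1 and 0.36 and 0.34 in M2. On chromosomes 4, 5 and 6 the M1 and M2 medians had the same sign as those of M3. Runs of at least 6 consecutive tested genes that all passed in 1 direction numbered 56 higher and 64 lower. The longest higher run was on chromosome 4 with 18 genes from Ripk2 to Map3k7 (median 0.95). The longest lower run held 22 genes from Pcdhga1 to Pcdhgc5 on chromosome 18 (median -0.39). These lie within 180.1 kb and may share reads, so they may not count as separate genes. The number of runs expected from the shares of genes that passed was not computed. DNA copy number was not measured here, and its part in these medians was not tested.

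Chromosomes 1 and 10 were shifted between M3 and both other clones. On chromosome 1 the medians relative to the Py2T LT mean were 0.44 and 0.38 in the M3 libraries, against 0.07 and 0.11 in M1 and 0.12 and 0.14 in M2. On chromosome 10 they were -0.21 and -0.20 in M3, against -0.49 and -0.54 in M1 and -0.57 and -0.61 in M2. In direct comparison, the chromosome 1 median was 0.28 above M1 and 0.25 above M2, and the chromosome 10 median was 0.32 above M1 and 0.35 above M2. With the genes of a chromosome cut into 4 equal stretches, the medians on chromosome 1 were between 0.24 and 0.34 above M1, and those on chromosome 10 between 0.21 and 0.36. No setting or omitted library brought either shift against M1 under 0.25. Chromosomes 13 and 19 were higher than in M2, by medians of 0.27 and 0.29, but differed from M1 by 0.01 and -0.07. Chromosomes 8 and 9 were lower than in M2, with medians of -0.31 and -0.24, and differed from M1 by -0.07 and -0.03.

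**Figure D4:**
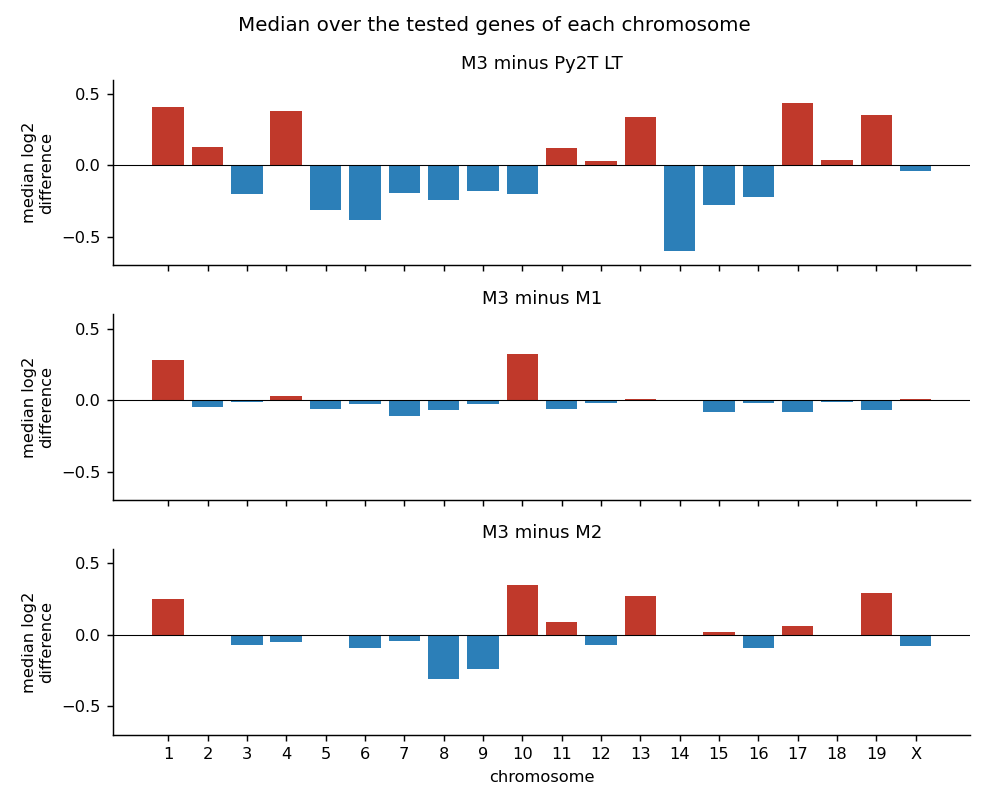
Bars give the median log2 difference over the tested genes of each chromosome for M3 minus Py2T LT, M3 minus M1 and M3 minus M2, red above 0 and blue below. Chromosomes 1 and 10 rise above M1 and above M2, while most of the difference from Py2T LT is absent from the M1 panel.

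Fewer genes passed between M3 and the other clones, comparisons that share the M3 libraries with the one above. Against M1, 594 genes (5.07%) passed, 359 (3.06%) higher and 235 (2.01%) lower in M3. Against M2, 2356 genes (20.1%) passed, 1221 (10.4%) higher and 1135 (9.69%) lower in M3. Chromosomes 1 and 10 held 10.7% of the tested genes but 197 (54.9%) of the 359 genes higher than in M1 and 369 (30.2%) of the 1221 higher than in M2. On chromosome 1, the 6 neighbours from Il1r1 to Slc9a2, a cluster of interleukin receptor genes with a sodium-proton exchanger, were all higher than in M1 (median 1.54). The interleukin-18 receptor gene Il18r1, chosen after its values were seen, had 33.4 and 36.5 RPKM in M3, against 9.23 and 12 RPKM in M1, 20.7 and 20.3 RPKM in M2 and 2.49 and 3.30 RPKM in Py2T LT. The count against M1 changed with single libraries, at 3309 without M1 replicate 2 and between 130 and 339 without any other library. The count against M2 was 847 and 876 without M2 replicate 1 or 2, 1336 and 997 without M3 replicate 1 or 2, and 3610 and 3602 without M1 replicate 1 or 2.

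Genes that separated M3 from M1, M2 and Py2T LT alike, in the same direction and with all 3 tests passed, numbered 182 (1.55%), 111 (0.947%) higher and 71 (0.606%) lower in M3. Of the 111, 40 (36.0%) lay on chromosomes 1 and 10, and of the 71, 0 did. The count was 62 and 59 without M3 replicate 1 or 2, 96 and 99 without M2 replicate 1 or 2, 112 and 115 without Py2T LT replicate 1 or 2, and 563 without M1 replicate 2. Glp1r, the receptor for the gut hormone GLP-1, had 18.7 and 13.8 RPKM in M3, against 1.55 and 2.00 RPKM in M1, 0.296 and 0.0818 RPKM in M2 and 1.26 and 1.06 RPKM in Py2T LT. The matrix ligand gene Npnt had 17.3 and 16.3 RPKM in M3, against 2.47 and 3.54 RPKM in M1, 1.28 and 1.45 RPKM in M2 and 0.279 and 0.233 RPKM in Py2T LT. Its receptor chain Itga8 was also higher in M3 than in each other group (log2 differences of 1.92 ± 0.18 from M1 and 1.13 ± 0.18 from M2). Epcam had 11.7 and 10.4 RPKM in M1 and 11.9 and 8.23 RPKM in M2, all below both M3 libraries.

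The 71 genes lower in M3 than in every other group held 2 of the 23 tested matrix glycoprotein and proteoglycan genes, as many as among the proteases, the receptor tyrosine kinases or the neuronal genes. Tnc had 19.5 and 12.8 RPKM in M3, against 58.6 and 83.8 RPKM in M1, 108 and 101 RPKM in M2 and 758 and 757 RPKM in Py2T LT. Crabp2, a retinoic acid binding protein, had 3.48 and 3.15 RPKM in M3, against 21.1 and 18.7 RPKM in M1, 28.6 ± 2.0 RPKM (SD, n = 2) in M2 and 53.2 and 55.4 RPKM in Py2T LT. Of the list genes, the junction genes Lsr and Marveld2, the epithelial factor Elf3, the ligand Lefty1, the collagen Col6a3 and the stem cell factor Sox2 were higher in M3 than in each other group. Timp1, Egfr, Itga5, Cldn1, the endoglin gene Eng and the latent TGF-beta binding protein gene Ltbp2 were lower. No gene of the SMAD, EMT transcription factor, NuRD, DNA methylation or deacetylase lists separated M3 from all 3 groups by these tests. Of all tested genes only 1.55% did, so lists of 14 to 21 tested genes would hold few or none at that share. The proliferation, p53, MHC class I and interferon lists held none either, so this does not set the 5 lists apart.

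**Figure D5:**
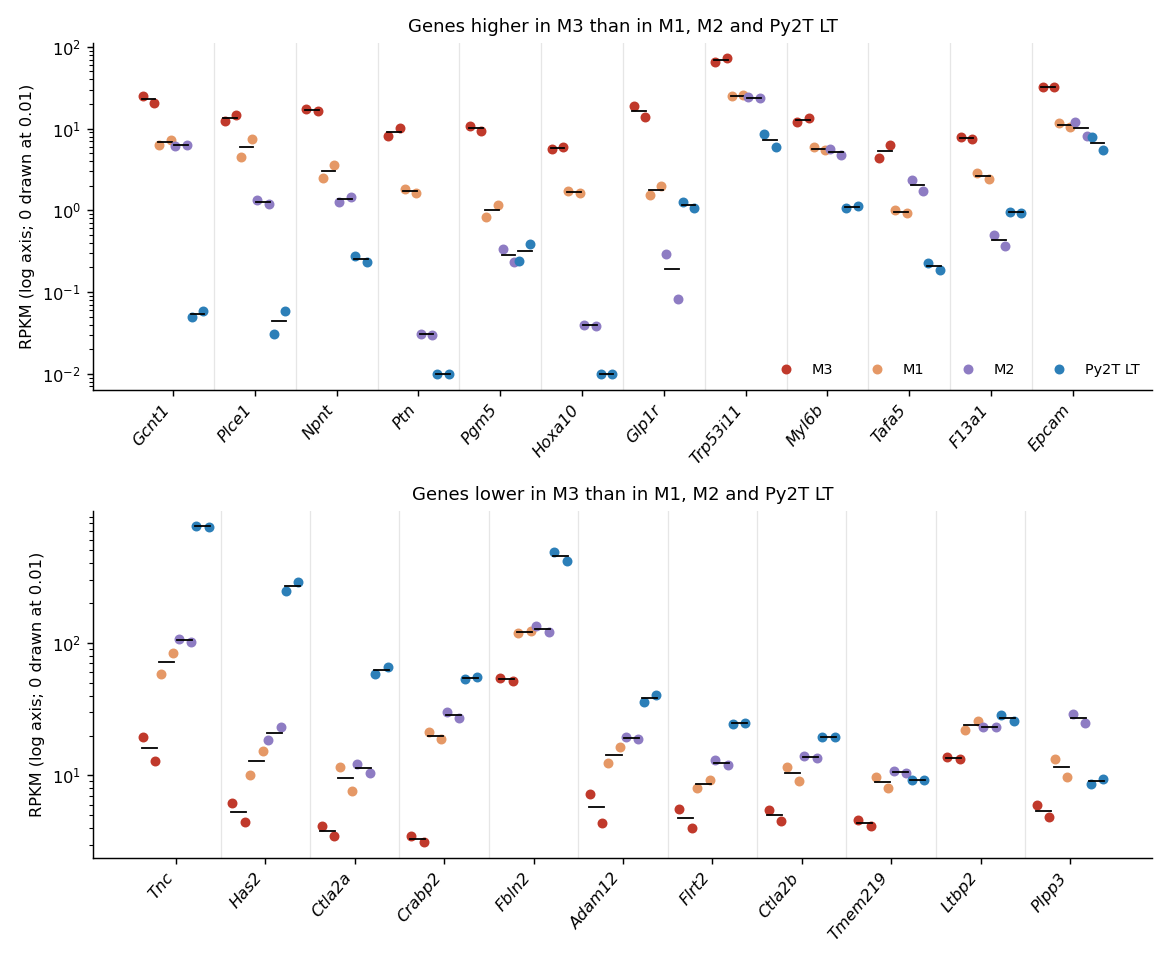
Each point is the RPKM of 1 library on a log axis, in the order M3, M1, M2 and Py2T LT, with a bar at each group's mean and values of 0 drawn at 0.01. The upper panel holds the 12 largest rises and the lower panel 11 of the largest falls that separate M3 from all 3 other groups, Glp1r and Tnc among them, and both M3 points lie beyond every other point of the gene.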

How the data were processed

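RNA sequencing libraries were made with a stranded total RNA kit, per the labels' protocols. The authors deposited RPKM for the 8 libraries used here, and the submitters' processing notes name STAR and mm10. The counting step and its use of strand are not given in the sources used here. Whether fragments or reads were counted, and the absolute depth, cannot be read from these values. The 12 shRNA libraries were not analysed here.

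RPKM were divided by trimmed-mean factors (30% trimmed on ratios, 5% on levels), and log2(RPKM + 0.5) was fitted with limma 3.58.1 in R 4.3.3, with a mean trend, robust moderation and group as the only term over 4 groups of 2. P-values were adjusted by Benjamini-Hochberg over 11717 genes, with a threshold of 0.05. The fit was tested on simulated data. Of the tested IDs, 26 had no RefSeq match and hence no chromosome. One file held 7 further columns, equal to the other libraries' files.

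The comparison, members and 30 gene lists were chosen with earlier results of these data known. Lists are described by counts and medians beside the background, with no set test. Named genes were 14 chosen genes, the 12 largest rises and falls with at least 5 RPKM in the higher group, up to 4 rises and falls per list with at least 1 RPKM, and the 12 largest rises and falls separating M3 from all 3 groups. Some genes this rule picks are not reported here. List members with smaller or no passed differences were named after their values were seen. Alternatives were other scalings, pseudocounts of 0.1 and 1, no filter, no trend, a block for the replicate number, a fit of the compared groups alone, and each library left out.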

Additional observations from a re-analysis of the deposited data

Results flagged for a closer look

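These genes differed in M3 from M1, M2 and Py2T LT alike, by 3 tests each. The value given is the log2 difference of M3 from whichever of M1 and M2 lay nearer. Among receptors, enzymes and secreted proteins higher in M3, the value was 2.89 for Glp1r, 2.84 for the phosphoglucomutase-like gene Pgm5, 2.34 for Npnt, 2.12 for the growth factor gene Ptn and 1.69 for the glycosyltransferase gene Gcnt1. It was 1.54 for the homeobox gene Hoxa10, 1.53 for Epcam, 1.44 for Trp53i11, 1.40 for the clotting factor gene F13a1, 1.21 for Tafa5, 1.18 for the phospholipase gene Plce1 and 1.11 for the myosin light chain gene Myl6b. Among genes lower in M3, it was -2.39 for Crabp2, -2.09 for Tnc, -1.25 for the metalloprotease gene Adam12, -1.15 for the hyaluronan synthase gene Has2 and -1.15 for Fbln2. It was -1.18 for Ctla2a and -0.95 for Ctla2b, which are near-identical and may share reads. It was -1.0 for the lipid phosphatase gene Plpp3, -0.92 for Tmem219, -0.77 for Flrt2 and -0.74 for Ltbp2. Without M3 replicate 2, Plpp3 no longer passed against Py2T LT (-0.57).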

How the results depend on the processing

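The count of 6975 genes between M3 and Py2T LT was 6833 to 6990 under other scalings and pseudocounts, 6846 without the trend, 7447 from these 2 groups alone and 7918 without the filter. It was 5480 to 7897 with 1 library left out. With libraries scaled to equal sums, 3884 were higher and 2949 lower, and the median of all genes was 0.08. No gene called in both fits changed sign under any of these settings. Of 267 named genes, 247 kept their call under every alternative and 0 reversed. Most of them were picked as large differences that had passed, a choice that favours a stable call. Leaving out 1 library gave 130 to 3309 genes against M1, 847 to 3610 against M2 and 59 to 563 for M3 apart from all groups. Without the filter, 151 genes were lower than in M1 (235 with it) and 45 were lower than in all groups (71 with it). A left-out library leaves 1 sample in its group, which is assumed to vary like the rest. Replicate numbers were not taken to pair the samples, since deviations of same-numbered libraries correlated between -0.122 and 0.128 over the 6 pairs of groups, at -0.092 for M3 and Py2T LT and 0.128 for M1 and M2. With the replicate block 6840 genes passed against Py2T LT, 476 against M1, 2171 against M2 and 162 for M3 apart. Crossed numbers of M3 and M1 (correlation -0.122), chosen after seeing the data, gave 381 genes against M1. The causes of these changes were not tested. Only 2 libraries a group and an unknown absolute depth limit the precision, and genes near 0 are compressed by the pseudocount.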
